A study of Mus musculus with 19 samples.

Results

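The erythroid genes described here are 10 named genes of red blood cell production: the adult α-globin genes Hba-a1 and Hba-a2, the adult β-globin genes Hbb-bs and Hbb-bt, the heme synthesis gene Alas2, the red cell membrane genes Slc4a1, Kel and Epb42, the enzyme gene Car1, and Ahsp, whose product is a chaperone of free α-globin. They were chosen by symbol, from a list drawn up with earlier results of these data known. Of the 10 genes, 9 had a row among the 49671 genes of the files, and all 9 were among the 23973 genes with a value high enough to be tested. Ahsp is not analysed here.

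RNA was sequenced from brain homogenate enriched for microglia, the resident macrophages of the brain, with 1 library from each of 19 mice. The HEM mice overexpressed human wild-type α-syn (full length) from an X-chromosomal transgene driven by the murine Thy-1 promoter, a promoter used for expression in neurons, and the WT mice were controls without it. The groups were HEM at 13 months (n = 8), WT at 13 months (n = 4), HEM at 3 months (n = 4) and WT at 3 months (n = 3), all on the B6D2F1/J background, and no group received a treatment. The labels tie each library to 1 mouse. Whether blood was flushed from the brains is not given in the sources used here. Libraries are named by group and by the number in their title. Depth, as reads in genes per library, ran from 63273388 to 95812547 for HEM at 13 months, from 93242446 to 124518160 for WT at 13 months, from 74675517 to 112871955 for HEM at 3 months and from 82978462 to 106792176 for WT at 3 months. All 10 microglia markers examined, among them Cx3cr1, P2ry12 and Tmem119, had reads in every library, with a summed level of 545465 to 1402914 normalized counts. An earlier look at these data set HEM libraries 1 and 11 at 13 months and HEM library 3 at 3 months apart on principal components, and counts without them are given with each result they alter.

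Red cells form from dividing, nucleated erythroblasts in the bone marrow, which switch on globin, heme synthesis and membrane genes under the factors Gata1 and Klf1 and then lose the nucleus. The resulting reticulocytes keep globin mRNA for a time after transcription has ended and shed most other transcripts as they mature in the blood. The adult brain is not a site of red cell production, and its vessels hold circulating red cells. In bulk tissue, fewer cells of a type and less RNA per cell cannot be told apart.

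The 2 α-globin genes lie on mm10 chromosome 11, Hba-a1 from 32283511 to 32284465 and Hba-a2 from 32296489 to 32297298. The 2 β-globin genes lie on chromosome 7, Hbb-bs from 103826534 to 103828096 and Hbb-bt from 103812524 to 103813996. Alas2 is on chromosome X (150547375 to 150570638), Slc4a1 on chromosome 11 (102348824 to 102366203), Car1 on chromosome 3 (14766216 to 14808368), Kel on chromosome 6 (41686330 to 41704339) and Epb42 on chromosome 2 (121017891 to 121037072). All 9 are protein-coding, and reads were counted over whole genes. Exons of Apex2 and Mir3620 on the opposite strand overlap 15.5% of the exon bases of Alas2, and whether strand was used in counting is not given in the sources used here. No exon base of the other 8 genes is overlapped. The open reading frames of Hba-a1 and Hba-a2 share 428 of 429 bases, with an unbroken identical run of 380, and those of Hbb-bs and Hbb-bt share 443 of 444, with a run of 416. Many reads of such a pair could come from either gene, so the division of reads within each pair is uncertain. The sum over a pair does not depend on how the counted reads were divided. It would be too low if reads that fit both genes were left out, and how such reads were handled is not given in the sources used here.

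RefSeq promoter windows (GRCm38.p6) were found for 7 members, so that the sequences can be set beside the levels that moved together. The 250 bases before the start in the RefSeq annotation are printed for 6 of them. The gene spans given above come from GENCODE, and the windows reach into those spans, so the 2 annotations place the starts differently. Distances to the start are counted from the RefSeq start. The window of Hba-a2 holds a run of 247 bases identical to that of Hba-a1 and is not printed. Capitals mark 4 short motifs, searched on both strands and chosen after the sequences were seen. The letters AGATAA, or with T as the first base, make a match to the factor Gata1 and its relatives (GATA-type). The letters CACCC are the core of the element that Klf1 binds. The letters CCAAT belong to a common promoter box. The letters ATATAA make a TATA-type match. No 2 matches overlap. The windows, each read 5′ to 3′ along its gene, are chr11:32283422-32283671 (plus strand) for Hba-a1, chr7:103827929-103828178 (minus) for Hbb-bs, chr7:103813924-103814173 (minus) for Hbb-bt, chrX:150547167-150547416 (plus) for Alas2, chr6:41704326-41704575 (minus) for Kel and chr2:121036878-121037127 (minus) for Epb42.
Hba-a1: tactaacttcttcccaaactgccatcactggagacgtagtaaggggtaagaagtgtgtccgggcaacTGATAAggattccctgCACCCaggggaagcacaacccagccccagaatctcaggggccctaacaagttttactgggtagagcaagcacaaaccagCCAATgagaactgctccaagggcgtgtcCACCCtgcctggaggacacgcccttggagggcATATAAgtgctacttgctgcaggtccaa
Hbb-bs: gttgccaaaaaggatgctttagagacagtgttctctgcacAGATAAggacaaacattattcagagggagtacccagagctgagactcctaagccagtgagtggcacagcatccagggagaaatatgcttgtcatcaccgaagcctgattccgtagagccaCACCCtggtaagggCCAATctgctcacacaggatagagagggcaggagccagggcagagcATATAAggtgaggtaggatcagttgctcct
Hbb-bt: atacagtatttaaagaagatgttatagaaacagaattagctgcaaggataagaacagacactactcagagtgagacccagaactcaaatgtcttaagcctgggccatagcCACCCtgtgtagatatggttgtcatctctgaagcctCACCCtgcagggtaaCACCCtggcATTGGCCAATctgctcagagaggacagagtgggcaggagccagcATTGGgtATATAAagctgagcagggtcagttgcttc
Alas2: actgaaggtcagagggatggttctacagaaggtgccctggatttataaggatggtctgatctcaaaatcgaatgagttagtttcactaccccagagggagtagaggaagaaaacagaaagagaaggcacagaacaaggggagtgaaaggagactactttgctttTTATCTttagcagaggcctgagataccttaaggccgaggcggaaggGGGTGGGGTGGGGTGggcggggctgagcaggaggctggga
Kel: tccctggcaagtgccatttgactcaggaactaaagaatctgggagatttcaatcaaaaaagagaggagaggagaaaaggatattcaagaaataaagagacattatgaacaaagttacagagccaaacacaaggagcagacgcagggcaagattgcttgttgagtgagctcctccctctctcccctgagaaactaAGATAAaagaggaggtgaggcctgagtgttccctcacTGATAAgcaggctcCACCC
Epb42: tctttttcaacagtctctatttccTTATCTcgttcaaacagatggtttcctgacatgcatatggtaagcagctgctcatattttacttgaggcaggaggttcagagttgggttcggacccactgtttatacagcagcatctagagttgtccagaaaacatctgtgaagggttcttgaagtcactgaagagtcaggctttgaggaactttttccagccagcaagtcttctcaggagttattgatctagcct

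The 4 globin windows each held a TATA-type match and a CCAAT match, and the windows of Alas2, Kel and Epb42 held neither. The TATA-type letters began 28 bases before the start in Hba-a1, 30 in Hbb-bs and 29 in Hbb-bt. Over 32851 promoter windows of the same length, 9.1% held the TATA-type letters and 33.8% held the box of CCAAT letters. Matches of the GATA-type were found in 6 of the 7 windows, all but that of Hbb-bt, against 16.6% of all windows. Kel held 2 of them, beginning 56 and 19 bases before its start. CACCC was found in 6 of 7 windows, all but that of Epb42, against 52.0% of all windows. The promoter windows of Hba-a1 and Hba-a2 were 97.6% identical and those of Hbb-bs and Hbb-bt 69.3%. These matches describe letters in a window and are not measured binding sites.

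Globin transcripts were abundant in all 19 libraries. The 4 globin genes together took 0.299% to 1.69% of all reads in genes, and Hba-a1 ranked between 6th and 63rd among all genes of a library by normalized count. Slc4a1 ranked between 2180th and 12791st. Per kilobase of exon, the median level at 13 months in HEM was 353085 normalized counts for Hba-a1, 361660 for Hbb-bs, 174498 for Hba-a2, 127387 for Hbb-bt and 5377 for Alas2. On the same per-kilobase scale the HEM medians were 761 for Slc4a1, 718 for Car1, 154 for Kel and 54.2 for Epb42. Each normalized count is the number of reads of a gene divided by the size factor of its library.

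Hbb-bs held more normalized counts than Hbb-bt, the other adult β-globin gene, in every library. Its lowest, median and highest values were 152235, 277755 and 499163 normalized counts in HEM at 13 months. The WT libraries at 13 months held 238346, 133899, 117983 and 90977. At 3 months HEM held 372287, 315361, 132293 and 383608, and WT held 414476, 201787 and 340885. The 13-month WT group was the low one: its highest library lay among the lower values of the other groups, and HEM library 4 at 3 months was low as well. The groups overlapped in each comparison.

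Hba-a2 held 80669 to 243600 normalized counts (median 116390) in HEM at 13 months. In WT at 13 months its values were 62734, 74084, 55436 and 61817, and at 3 months they were 165684, 191863, 63471 and 189577 in HEM and 278154, 121821 and 220711 in WT. Every HEM library at 13 months thus lay above every WT library of that age, with a gap between 74084 and 80669, and every WT library at 3 months lay above those 4 as well. Hba-a1 held 146934 to 575089 (median 286705) in HEM at 13 months. The WT libraries of that age held 326278, 124260, 103123 and 93002, so that library 6 stood above the other 3. At 3 months Hba-a1 ran from 113233 to 343659 in HEM and from 190438 to 425253 in WT. Hbb-bt ran from 48354 to 156458 in HEM and from 31934 to 62433 in WT at 13 months, and from 30113 to 114448 in HEM and from 67202 to 166124 in WT at 3 months.

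Alas2, which encodes the first and rate-limiting enzyme of erythroid heme synthesis, held 6471 to 21663 normalized counts (median 12920) in HEM at 13 months. The WT values at that age were 12048, 6299, 5130 and 4967. At 3 months HEM held 18859, 13554, 6215 and 20823, and WT held 16956, 9487 and 19887. The same libraries were high and low as for Hbb-bs, with WT library 6 high in its group and HEM library 4 low at 3 months.

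Slc4a1, which encodes the chloride-bicarbonate exchanger of the red cell membrane, held 1748 to 8395 normalized counts (median 3722) in HEM at 13 months. In WT at that age it held 1057, 1844, 908 and 478. At 3 months HEM held 1596, 967, 391 and 1433, and WT held 1191, 3125 and 2696. Of the 8 HEM libraries at 13 months, 7 lay above all 4 WT libraries, and library 7, at 1748, lay below WT library 7, at 1844. Car1, which encodes a cytosolic carbonic anhydrase made early in red cell formation, held 122 to 1879 (median 896) in HEM and 53.9, 148, 143 and 30.3 in WT at 13 months. At 3 months it held 224, 117, 65.2 and 69.0 in HEM and 81.3, 290 and 197 in WT. Only HEM library 3, at 122, lay within the WT range at 13 months.

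Kel, which encodes a membrane endopeptidase that carries the Kell blood group, held 126 to 1097 normalized counts (median 428) in HEM and 63.7, 247, 108 and 46.5 in WT at 13 months. At 3 months it held 151, 83.2, 17.6 and 95.4 in HEM and 64.4, 405 and 190 in WT. Epb42, whose product anchors the anion exchanger to the membrane skeleton, held 140 to 623 (median 294) in HEM and 95.9, 175, 70.8 and 14.2 in WT at 13 months. At 3 months it held 138, 43.3, 37.6 and 69.0 in HEM and 114, 228 and 166 in WT. For both genes the ranges overlapped at each age, and WT library 7 was the highest of the 13-month WT group.

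**Figure D1:**
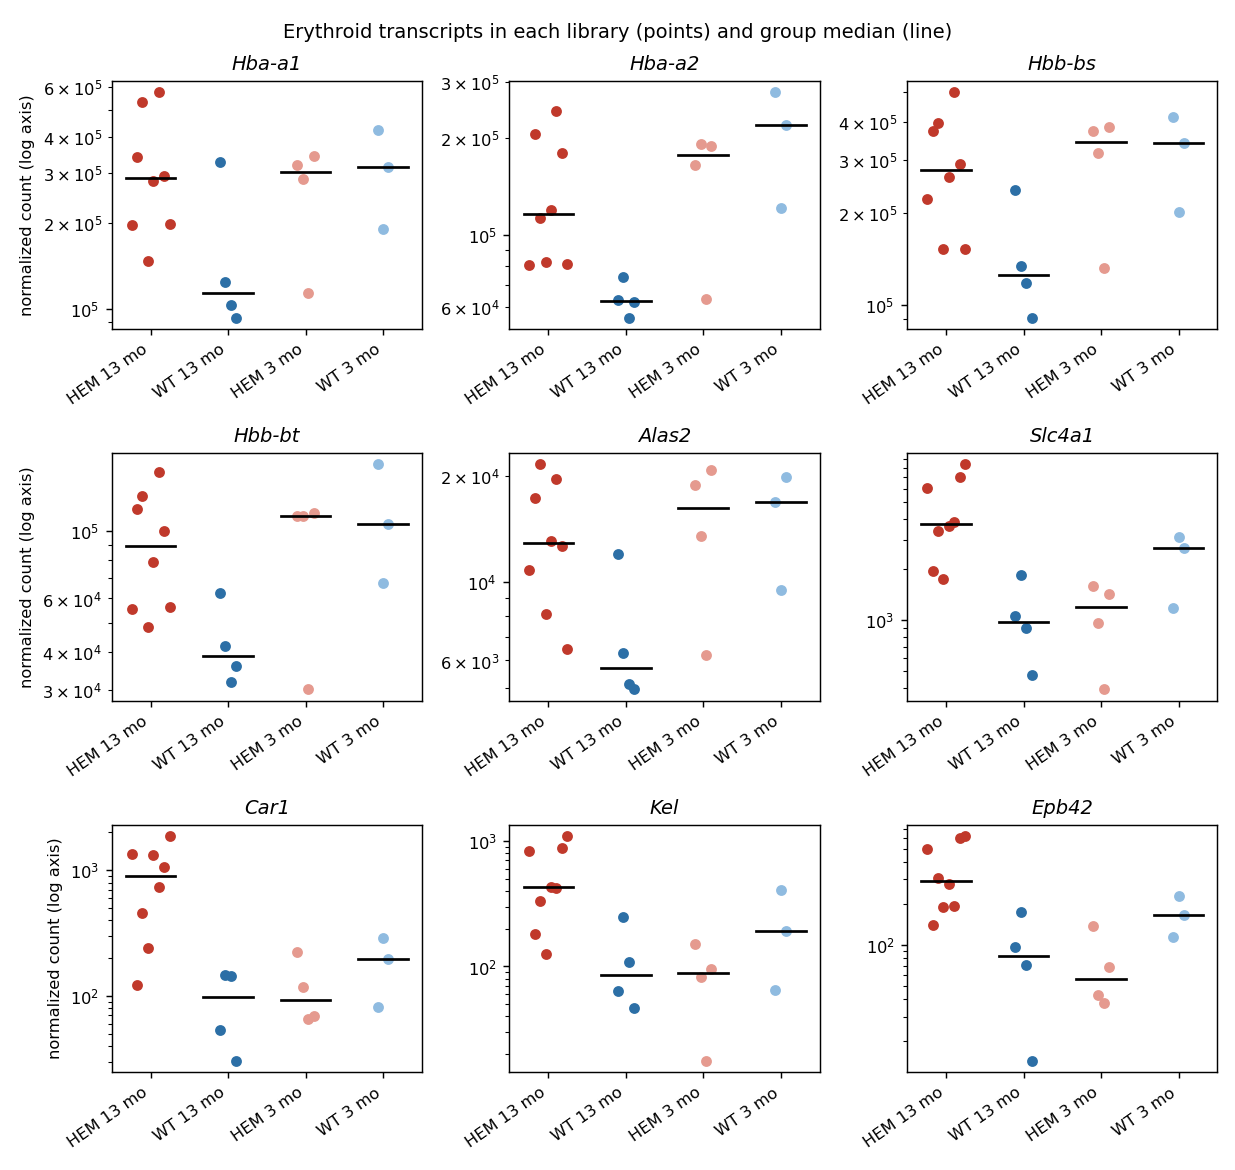
Normalized counts (log axis) of the 9 erythroid genes, with 1 point a library and a line at the group median. The globin genes and Alas2 are low in WT at 13 months against the other 3 groups, while Slc4a1, Car1, Kel and Epb42 are highest in HEM at 13 months.

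The 13-month comparison asks whether red cell transcripts differed between HEM and WT preparations of older mice. Slc4a1, Car1, Kel and Epb42 were higher in HEM, and all 9 members had a positive difference. Car1 rose by 3.08 ± 0.65 on the log2(value + 1) scale (difference ± SE, 8 HEM against 4 WT libraries; limma adjusted p = 0.00528), an 8.46-fold difference. Slc4a1 rose by 2.04 ± 0.46 (adjusted p = 0.00736), Epb42 by 2.24 ± 0.55 (adjusted p = 0.0116) and Kel by 2.17 ± 0.65 (adjusted p = 0.0355), each by limma-trend with Benjamini-Hochberg adjustment over all tested genes. These 4 of 9 calls, all higher in HEM, stand beside 12.2% of all tested genes called in either direction and 4.87% called higher in HEM. The median difference was 1.04 over the 9 members and 0.03 over all tested genes.

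The globin genes and Alas2 differed by 1.92-fold to 2.06-fold and did not pass the test over all genes. The log2 differences were 1.04 ± 0.40 for Hba-a1, 1.04 ± 0.38 for Hbb-bt and 0.94 ± 0.36 for Alas2, and those of Hba-a2 and Hbb-bs were 2.01-fold and 2-fold (log2 SE 0.34 and 0.35), with limma adjusted p between 0.0601 and 0.102. Their unadjusted p lay between 0.00802 and 0.018, and the 95% intervals of the difference ran from 0.20 at the lowest to 1.89 at the highest. Hba-a2 was the 1 member whose HEM and WT libraries did not overlap at 13 months, as was so for 6.66% of all tested genes.

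The count of members called at 13 months depended on the tool, on the filter and on single libraries. edgeR called 5 members (Hba-a2 as well) among 2898 genes, and DESeq2 called 8 (all but Hba-a1) among 4032 genes, against 4 among 2918 by limma. Without the filter on low values Kel was lost (limma adjusted p = 0.0609). Without the 3 libraries that stand apart 3 were called, as Kel was lost (2.01, limma adjusted p = 0.0923). Slc4a1 and Car1 kept their calls whichever of the 19 libraries was left out. Epb42 lost its call without WT library 9 at 13 months (1.53, limma adjusted p = 0.0617). Kel lost it without HEM libraries 1, 8, 12 or 13 or WT libraries 6, 8 or 9 at 13 months, with limma adjusted p of 0.0501 to 0.139 and differences of 1.83 to 2.24. Members called fell to 2 without WT library 9, and rose to 7 without HEM library 7 at 13 months or HEM library 4 at 3 months, when Hba-a2, Hbb-bs and Hbb-bt passed. Without HEM library 13 Hba-a2, Hbb-bs and Alas2 passed, without HEM library 1 Hba-a2 passed, and without WT library 6 Hba-a1, Hbb-bs and Alas2 passed, with Hba-a1 then at 1.45 (limma adjusted p = 0.0232).

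**Figure D2:**
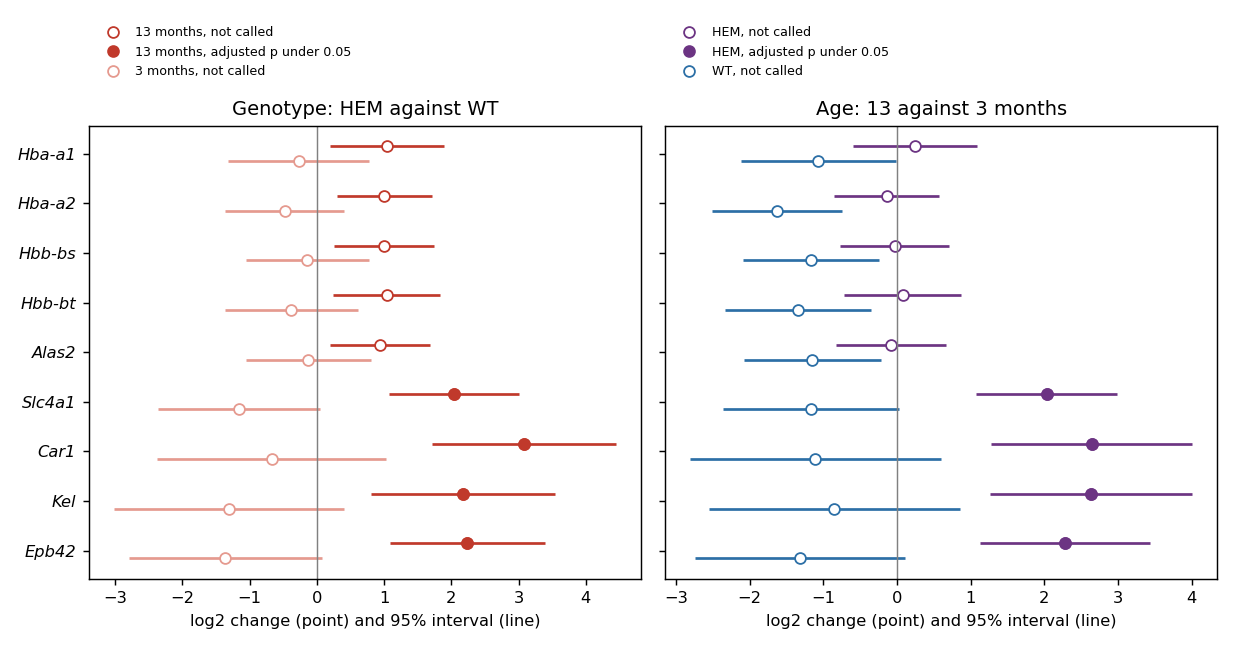
Log2 difference (point) with its 95% interval (line) of the 9 erythroid genes, for HEM against WT at each age (left) and for 13 against 3 months in each genotype (right); filled points have an adjusted p under 0.05. At 13 months all 9 points lie above 0 and 4 are filled, and in WT all 9 age differences lie below 0.

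At 3 months no member passed the test, and no gene did: 0 of 9 members and 0% of all tested genes were called by limma, 924 genes had an unadjusted p under 0.05, and none of those was a member. edgeR called 0 genes and DESeq2 6. All 9 differences were negative, from -0.13 ± 0.44 for Alas2 and -0.14 ± 0.44 for Hbb-bs to -1.16 ± 0.57 for Slc4a1, -1.31 ± 0.82 for Kel and -1.36 ± 0.68 for Epb42. The 95% interval reached from -2.36 to 0.04 for Slc4a1 and from -1.06 to 0.78 for Hbb-bs. Without HEM library 4, the low one, the difference of Hbb-bs was 0.22, that of Alas2 0.24, and those of Hba-a1 and Hbb-bt 0.10. The groups overlapped for all 9 members, while they did not for 5.86% of all tested genes.

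With age, WT and HEM mice were each compared between 13 and 3 months. In WT, 0 of 9 members were called (0.709% of all tested genes were), and all 9 differences were negative, from -0.85 ± 0.82 for Kel to -1.63 ± 0.42 for Hba-a2 (limma adjusted p = 0.0681). At an unadjusted p under 0.05 there were 5 members, the 4 globin genes and Alas2, among 3714 of the 23973 tested genes. DESeq2 called Hba-a2 and Hbb-bt, at -1.70 and -1.39, among 1217 genes, against 170 genes and no member by limma. Hba-a2 and Hbb-bt had no overlap between the 13-month and 3-month WT libraries, as held for 15.3% of all tested genes. The sum over the α-globin pair and the sum over the β-globin pair did overlap between these libraries.

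In HEM, Slc4a1, Car1, Kel and Epb42 were higher at 13 than at 3 months, 4 of 9 members against 1.62% of all tested genes. The log2 differences were 2.03 ± 0.46 for Slc4a1 (limma adjusted p = 0.0314), 2.65 ± 0.65 for Car1 (adjusted p = 0.0467), 2.64 ± 0.65 for Kel (adjusted p = 0.0482) and 2.28 ± 0.55 for Epb42 (adjusted p = 0.0418). The HEM libraries of both ages did not overlap for Slc4a1 and Epb42, as held for 2.79% of all tested genes. The globin genes and Alas2 lay between -0.14 ± 0.34 (Hba-a2) and 0.25 ± 0.40 (Hba-a1). These 4 calls depended on single libraries and on the fit. None remained without HEM library 12 or 13 at 13 months, without any 1 of the 4 HEM libraries at 3 months, or without the 3 libraries that stand apart, though the differences stayed between 1.60 and 3.01. With HEM library 1, 4 or 8 at 13 months, WT library 8 at 13 months or WT library 5 at 3 months left out 1 member remained called, and with HEM library 11 or WT library 6 at 13 months left out 2 did. Without the filter on low values 0 were called, with limma adjusted p of 0.0528 to 0.0731, with only the HEM libraries in the fit 1 (Epb42), and by edgeR 2 (Slc4a1 and Car1). Both comparisons share the 13-month HEM libraries, so the same 4 genes being called in both is not independent evidence.

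The difference of the genotype effects between the ages was positive for all 9 members and passed the test for none (0% of all tested genes by limma; 3551 genes, 6 of them members, at an unadjusted p under 0.05). It was 3.20 ± 0.73 for Slc4a1 (limma adjusted p = 0.0843), 3.60 ± 0.87 for Epb42 (adjusted p = 0.0936), 3.75 ± 1.04 for Car1 (adjusted p = 0.111) and 3.48 ± 1.05 for Kel (adjusted p = 0.129). For the globin genes and Alas2 it lay between 1.07 ± 0.57 and 1.49 ± 0.54. edgeR called 0 genes, and DESeq2 called 938, among them those 4 members (3.16 for Slc4a1, adjusted p = 0.00174). Without HEM library 7 at 13 months limma called Slc4a1 (3.36, adjusted p = 0.0339) and Epb42 (3.70, adjusted p = 0.0491).

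The members moved as 2 sets across libraries, a division noticed in these values. Hbb-bs was 17.1 to 25.5 times Alas2 in normalized counts in all 19 libraries, while it was 18.1 to 348 times Slc4a1. After each group's mean was removed, the 10 pairs among the globin genes and Alas2 had a Pearson r of 0.72 to 0.96 over the 19 libraries (Spearman's rho 0.64 to 0.97), and the 6 pairs among Slc4a1, Car1, Kel and Epb42 had 0.75 to 0.96 (rho 0.77 to 0.93). The 20 pairs between the sets had r of -0.19 to 0.18. Over 54 relations computed, the largest adjusted permutation p of a pair within a set was 0.00774 for r and 0.0223 for rho, and the smallest between the sets was 0.872 for r. With the 2 libraries farthest from the median left out, r within the sets was 0.63 to 0.96. All values of a library share its size factor and its depth.

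Within the 8 HEM libraries at 13 months alone the same division was seen, with less certainty for Hba-a2. The sets were noticed in values that include these libraries, so this is not independent evidence. In these 8 libraries r was 0.71 to 0.97 within the globin and Alas2 set. It was 0.82 to 0.99 within the set of Slc4a1, Car1, Kel and Epb42, and -0.47 to -0.03 between the sets. Hbb-bs and Alas2 had r = 0.97 and rho = 0.95 (exact permutation adjusted p = 0.00502 and 0.0205), and Slc4a1 and Kel r = 0.99 and rho = 0.98 (exact permutation adjusted p = 0.00134 and 0.0107). Hba-a2 had r = 0.73 with Hba-a1 (rho 0.79, exact permutation adjusted p = 0.122 and 0.0794) and 0.71 with Alas2 (rho 0.67, exact permutation adjusted p = 0.146 and 0.214), and r = 0.49 and 0.54 without 2 libraries. Between the sets, leaving out the 2 farthest libraries moved r to between -0.76 (Hbb-bt and Car1) and 0.21 (Hba-a2 and Epb42). Hbb-bs and Slc4a1 had r = -0.18 and rho = -0.24 (exact permutation adjusted p = 0.805 and 0.731), and r = -0.52 without the 2 libraries farthest from the median of Hbb-bs. HEM library 13 shows the separation in single values: it had the highest Slc4a1 of all libraries, at 8395 normalized counts, and the lowest Hbb-bs of its group, at 152235. WT library 1 at 3 months was the reverse, with the highest Hbb-bs of its group, at 414476, and the lowest Slc4a1, at 1191. In the printed windows, TATA-type and CCAAT letters were present in the globin promoters and absent from those of Alas2, which moved with them, and of Kel and Epb42, which did not.

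**Figure D3:**
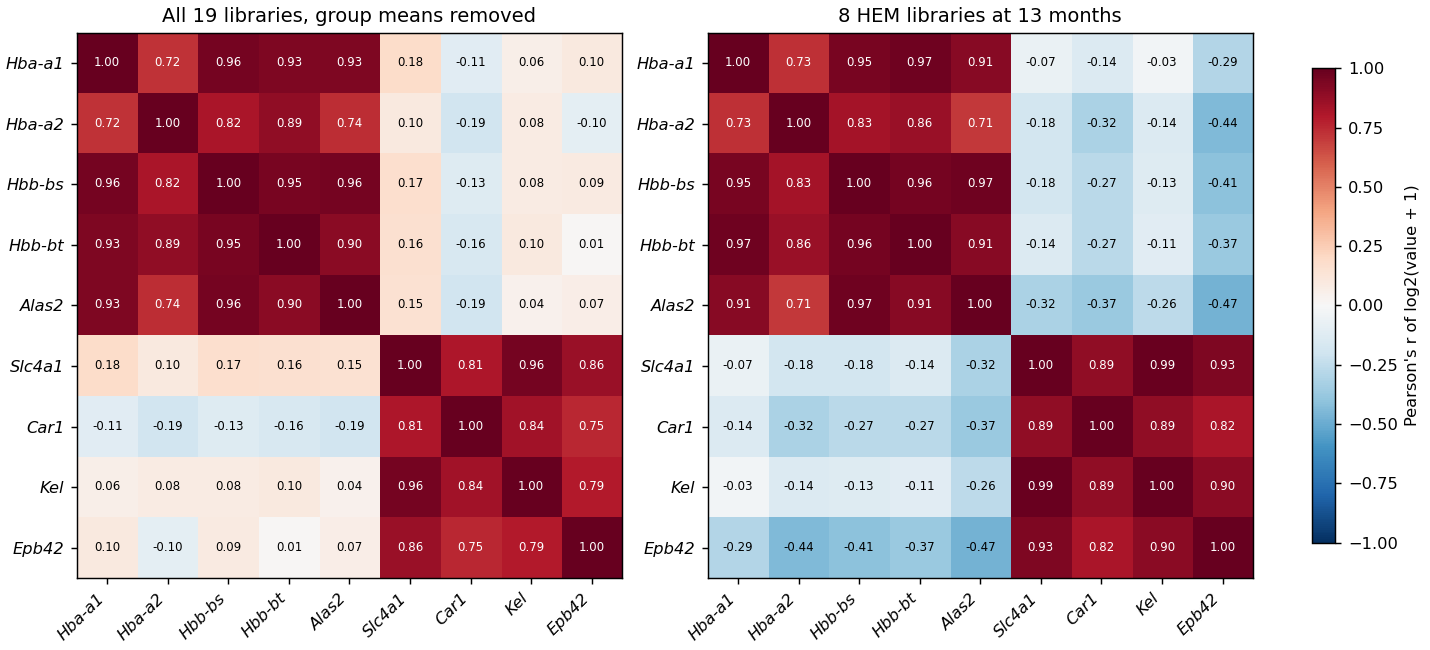
Pearson's r of log2(value + 1) between each pair of the 9 erythroid genes, over all 19 libraries after group means were removed (left) and over the 8 HEM libraries at 13 months (right); red is positive and blue negative. Each panel shows 2 red blocks, the globin genes with Alas2 and the other 4 genes, and values of -0.47 to 0.18 between them.

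The balance of counted α- and β-globin reads lay in a narrow range. It depends on how reads that fit both genes of a pair were handled, which is not known. Hba-a1 and Hba-a2 together made 49.9% to 57.3% of the reads of the 4 globin genes over all libraries, with 13-month means of 54.0% ± 2.19 over the 8 HEM libraries and 54.0% ± 2.20 over the 4 WT libraries. The 3-month means (± SD) were 51.6% ± 1.16 over 4 HEM libraries and 54.3% ± 0.569 over 3 WT libraries. The 3-month groups did not overlap, with the highest HEM library at 52.7% and the lowest WT library at 53.7%, a difference that was not tested. The background strain is a cross of inbred strains, and the alleles that each mouse carried at the β-globin genes were not determined here. The ratio of Hbb-bs to Hbb-bt ran from 2.49 to 4.39. Among 13-month mice its mean log2 (± SD) was 1.67 ± 0.17 over 8 HEM and 1.71 ± 0.27 over 4 WT libraries, a difference of -0.04 (exact permutation test, two-sided p = 0.739). Among 3-month mice the log2 means were 1.78 ± 0.27 over 4 HEM and 1.53 ± 0.19 over 3 WT libraries, a difference of 0.24 (exact permutation test, two-sided p = 0.286, in a design that cannot go below 0.05).

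The division of α-globin reads between Hba-a1 and Hba-a2 was less even. The ratio of Hba-a1 to Hba-a2 was 1.42 to 1.93 in 13 of the 19 libraries. It was 2.35 to 2.45 in HEM libraries 1, 8, 11 and 13 at 13 months, 4.73 in HEM library 4 and 5.2 in WT library 6 of that age. No 3-month library was above 1.93. The coding sequences differ at 1 of 429 aligned bases, and whether reads that fit both genes were counted, left out or shared is not given in the sources used here. Those 6 libraries held both the lowest and the highest share of the 2 genes together, 49.9% in HEM library 1 and 57.3% in HEM library 13. The share was 53.9% in HEM library 8, 55.5% in HEM library 11, 55.1% in HEM library 4 and 56.4% in WT library 6. The median over all 19 libraries was 53.7%.

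**Figure D4:**
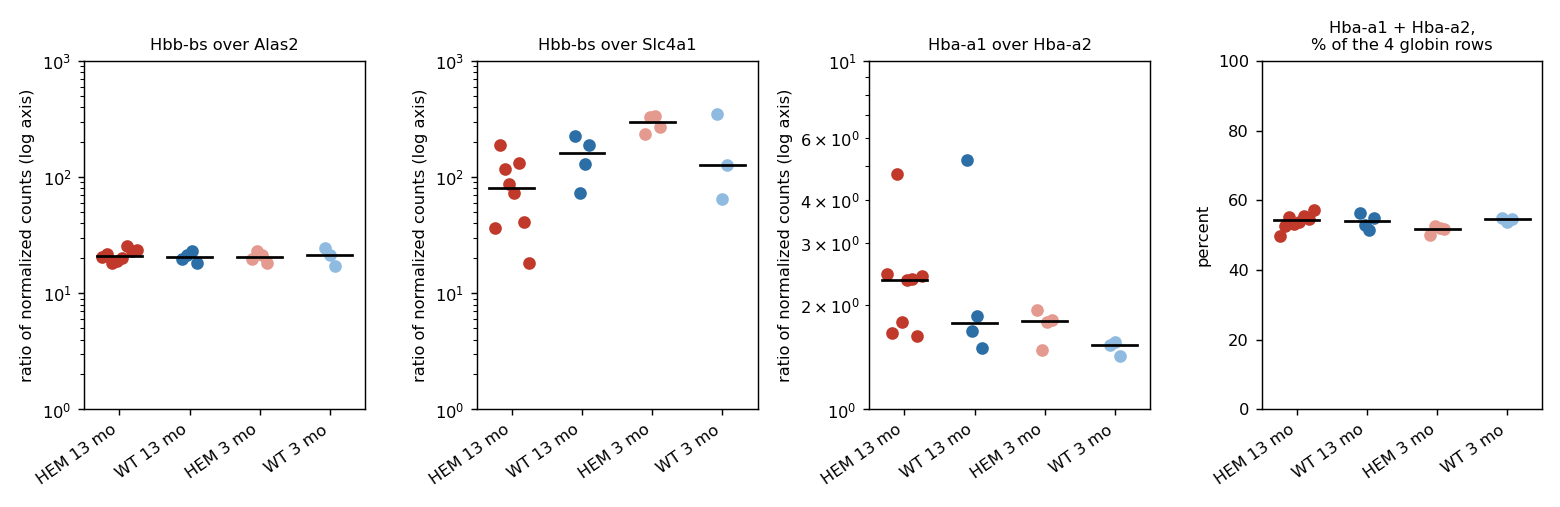
Ratios of normalized counts (log axes) in each library, with a line at the group median: Hbb-bs over Alas2, Hbb-bs over Slc4a1 and Hba-a1 over Hba-a2, and the α-globin share of the 4 globin genes in percent. Hbb-bs over Alas2 stays between 17.1 and 25.5, while Hbb-bs over Slc4a1 spreads from 18.1 to 348.

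Likeness of other genes to the mean of the 9 members was measured by r over the 19 libraries after group means were removed. Among the most alike were the erythroid ubiquitin ligase gene Trim10 (0.89), the minor globin gene Hbq1b (0.88), the butyrophilin-like gene Btnl10 (0.81), the exonuclease gene Isg20 (0.79), the Rh-associated transporter gene Rhag (0.78) and the mitotic ubiquitin-conjugating enzyme gene Ube2c (0.77). Likeness to 1 gene of each set was added after the sets were seen. The 4 genes most like Hbb-bs were Ube2l6 (0.98), Fam220a (0.94), Bpgm (0.89), which encodes the red cell bisphosphoglycerate mutase, and Mkrn1 (0.87). Among those most like Slc4a1 were Btnl10 (0.96), Rhag (0.95), the Rh blood group gene Rhd (0.92) and Ube2c (0.90).

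Other red cell genes were followed through 6 lists of 3 to 19 tested genes, grouped by function. At 13 months 4.87% of all tested genes rose and 12.2% were called in either direction, the shares to set beside each list count. Of 14 erythroid regulators, 5 rose in HEM at 13 months and all 14 had a positive difference, with a list median of 0.60 against 0.03 over all genes. Nfe2, a subunit of an erythroid and megakaryocyte transcription factor, rose by 1.76 ± 0.36 (limma adjusted p = 0.00419), with lowest, median and highest values of 760, 1924 and 2948 normalized counts in HEM against 369, 531 and 703 in WT. Gata1, the master factor of erythroid and megakaryocyte genes, rose by 2.15 ± 0.44 (limma adjusted p = 0.00433), with 136, 284 and 576 in HEM against 34.4, 68.8 and 76.0 in WT. For both genes all 8 HEM libraries lay above all 4 WT libraries, while 6.66% of all tested genes had no overlap in either direction. Both were named for the smallest p of their list in this same comparison, so their separation is not independent of that choice.

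Of 19 tested red cell membrane and skeleton genes outside the members, 6 rose and 4 fell at 13 months, with a median of 0.48. Those with the smallest p were the water and glycerol channel gene Aqp9, which rose by 1.21 ± 0.23 (limma adjusted p = 0.00302), and the complement inhibitor gene Cd59a, which fell by 0.75 ± 0.15 (adjusted p = 0.00364; -0.75 on the log2 scale). The risers included Rhag (2.76), Rhd (2.22) and Ermap (1.46), and the other genes that fell were Aqp1 (-0.72), Tmod1 (-0.71) and Tspan33 (-0.68), named here after their values were seen. Aqp9, Cd59a and Aqp1 are also expressed outside red cells.

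Heme synthesis genes after Alas2 showed little change at 13 months. Of 7 tested, 0 rose and 1 fell, Urod, which encodes uroporphyrinogen decarboxylase (-0.52 ± 0.10, limma adjusted p = 0.0029), and the median was 0.10. Fech, whose enzyme inserts iron into the heme ring at the last step, differed by -0.03 ± 0.12. Of 12 iron and heme transport genes 1 rose, the mitochondrial transporter gene Abcb10 (0.47 ± 0.10, limma adjusted p = 0.0051), with a median of 0.11. These are enzymes and carriers that most cells express. Of 16 red cell enzyme and reticulocyte genes 2 rose and 3 fell, with the peroxide-removing enzymes Prdx2 (-0.45 ± 0.10, limma adjusted p = 0.00596) and Cat (-0.52 ± 0.12, adjusted p = 0.00725) among those that fell, and a median of 0.22. Of 7 embryonic and minor globin genes 3 were tested and 0 called. Hbq1b held 49.1 to 188 normalized counts in HEM and 34.6 to 81.2 in WT at 13 months (0.98 ± 0.36, limma adjusted p = 0.0882). The embryonic genes Hba-x, Hbb-y, Hbb-bh1 and Hbb-bh2 stayed at or under 15.9 normalized counts in every library, and Hbb-bh0 had no read in any of the 19 libraries, which allows at most 3 reads a library and covers counting error only.

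**Figure D5:**
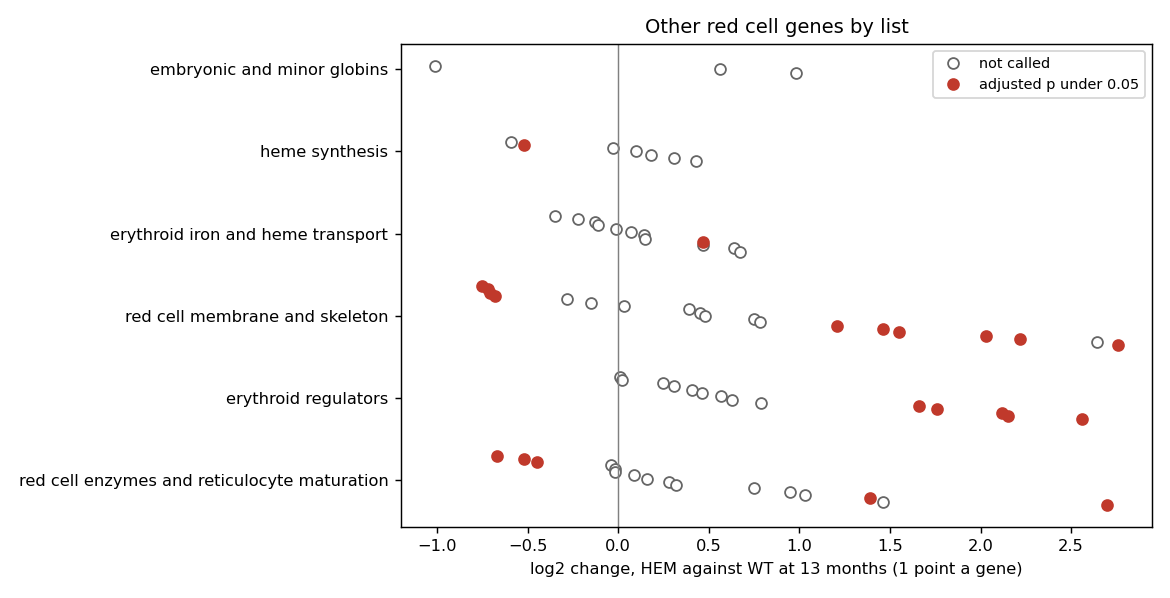
Log2 difference between HEM and WT at 13 months for each tested gene (1 point) of 6 lists of other red cell genes; filled points have an adjusted p under 0.05. Filled points beyond 1 lie in the membrane, regulator and enzyme lists, and the heme synthesis and transport lists stay between -0.6 and 0.7.

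In the other comparisons fewer of these genes passed than at 13 months. At 3 months 0 genes of the 6 lists were called, as were 0% of all tested genes. Between 13 and 3 months Prdx2 rose in WT (0.55 ± 0.12, limma adjusted p = 0.0453), where 0.709% of all tested genes were called. In HEM, Gata1 rose with age by 2.23 ± 0.44 (limma adjusted p = 0.0179) and Aqp9 by 1.29 ± 0.23 (adjusted p = 0.0141), while Cd59a was lower (-0.67 ± 0.15, adjusted p = 0.0282), as was the iron transporter gene Slc11a2 (-0.27 ± 0.07, adjusted p = 0.0472). Aqp1 was lower as well (-0.72). By list, 1 of 12 iron and heme transport genes fell, 1 of 19 membrane and skeleton genes rose and 2 fell, and 1 of 14 regulators rose. These HEM counts stand beside 1.62% of all tested genes called in either direction.

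Markers of several other blood and marrow cells were also higher in HEM at 13 months. All 6 granulocyte precursor genes (Elane, Mpo and others) and all 8 mature neutrophil genes rose, as did 3 of 5 eosinophil and basophil genes, 5 of 8 platelet and megakaryocyte genes and 7 of 8 cell cycle genes. Of all tested genes 4.87% were called higher. None of 8 B lymphoid precursor, 10 microglia, 6 endothelial and 6 neuronal genes was called. Positive differences were seen for 7 of the B lymphoid precursor genes (list median 0.65) and 0 of the microglia genes (-0.24). They were seen for 5 of the endothelial genes (0.25) and 5 of the neuronal genes (0.24). No gene of these 9 lists was at 0 in any library. The summed level of the granulocyte precursor genes ran from 3726 to 87170 normalized counts in HEM and from 1012 to 4237 in WT at 13 months, and from 1942 to 15372 in HEM and 6821 to 13534 in WT at 3 months. That of the cell cycle genes ran from 6661 to 36687 in HEM and from 3022 to 6076 in WT at 13 months, and from 6396 to 11474 and 4184 to 11872 at 3 months. Those of the neutrophil genes were 65030 to 549331, 39728 to 108900, 48694 to 145798 and 72486 to 194370 in the same order of groups.

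Several of these marker levels, though not that of the platelet and megakaryocyte list, went with Slc4a1 across libraries. With group means removed, Slc4a1 had r = 0.82 with the cell cycle list (rho 0.78, permutation adjusted p = 0.000648 and 0.00262, n = 19), 0.76 with B lymphoid precursors (rho 0.83, permutation adjusted p = 0.00243 and 0.00113) and 0.69 with granulocyte precursors (rho 0.61, permutation adjusted p = 0.00938 and 0.047). Without the 2 libraries farthest from the median of Slc4a1 these were 0.87, 0.81 and 0.63. For mature neutrophils r was 0.67 and for eosinophils and basophils 0.63. It was 0.02 for platelets and megakaryocytes (rho -0.05, permutation adjusted p = 0.958 and 0.932), and 0.06 within the 8 HEM libraries at 13 months. For microglia, endothelium and neurons r was -0.42, -0.26 and -0.12. Hbb-bs had r of -0.19 to 0.23 with the 9 lists, with permutation adjusted p of 0.872 or more for r and 0.547 or more for rho. Within the 8 HEM libraries at 13 months its r ran from -0.64 with B lymphoid precursors to 0.59 with microglia. The exact permutation adjusted p was 0.212 or more for r and 0.155 or more for rho. Within the 8 HEM libraries at 13 months Slc4a1 had r = 0.95 with the cell cycle list (rho 0.90, exact permutation adjusted p = 0.0075 and 0.0274) and 0.85 with granulocyte precursors (rho 0.79, exact permutation adjusted p = 0.0314 and 0.0794).

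With the mean level of the granulocyte precursor and neutrophil genes as a covariate, no member was called at 13 months. The differences were then 0.59 for Slc4a1, 0.79 for Car1, 0.27 for Kel and 0.57 for Epb42, against 2.04 to 3.08 without it. In HEM with age the same fit called no member either, with 1.03 for Slc4a1, 1.05 for Car1, 1.31 for Kel and 1.12 for Epb42, against 2.03 to 2.65. At 13 months the globin genes and Alas2 kept differences of 0.79 (Hba-a1), 1.20 (Hba-a2), 0.91 (Hbb-bs), 0.96 (Hbb-bt) and 0.87 (Alas2), against 0.94 to 1.04. That marker level itself differed between the groups, so genotype and marker level cannot be told apart in this fit. The part of these other cells in the higher erythroid levels was not tested further.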

How the data were processed

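The deposited signal values are reads per gene divided by 1 size factor per library; the files give them with no further statement, and the submitters' processing notes name Trimmomatic, HISAT2, featureCounts, DESeq2 and the build mm10 without versions or roles. How reads that fit several genes were counted, and whether strand was used, is not given in the sources used here. Multiplying by the recovered size factor gave whole reads for 100% of values (within 0.01). Symbols came from GENCODE M21, which matched 99.3% of 49671 gene IDs.

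Genes that reached 10 normalized counts in 3 or more libraries, 23973 in all, were tested by limma-trend with robust moderation, on log2(value + 1); limma was version 3.58.1 under R 4.3.3. All 19 libraries, in 4 groups set by the labels, entered 1 model, and p-values were adjusted over all tested genes by the Benjamini-Hochberg method, with a call at an adjusted p under 0.05. Each p measures the spread between mice. Recovered reads were also tested with edgeR 4.0.16, DESeq2 1.42.0 and limma voom. On simulated data at 13 months the test called 31% of 58 genes changed by 1.5 times. It called 39.1% of 69 genes changed by 2 times and 74.6% of 67 changed by 4 times. There were 13 false calls among 23475 genes, a larger share of all calls made than the threshold of 0.05. At 3 months the test called 11% of 73, 34.3% of 67 and 69.1% of 55 such genes, with 3 false calls among 23490. Ratios were compared by exact permutation (scipy 1.17.1). For correlations, 100000 permutations within groups were drawn over the 19 libraries, with a smallest possible p of 1e-05 before adjustment, and all 40320 orders were used within the 8 HEM libraries at 13 months. Promoter windows came from RefSeq (GRCm38.p6), and open reading frames are the longest in the protein-coding transcripts.

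The members and the lists were chosen with earlier results of these data known. All members are named in each comparison. Of each list of other red cell genes, the 2 called genes with the smallest p are named, and, among genes with a mean of at least 50, those of the 8 most like the mean of the members; some of these genes are not reported here. Other names were chosen after their values were seen. Alternatives covered tool, scaling, low filter, pseudocount, the samples in the fit, a replicate block, a granulocyte marker covariate and libraries left out.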

Additional observations from a re-analysis of the deposited data

Results flagged for a closer look

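Each gene and the main ratios were looked at for 1 library far from the rest of its group, in the 36 groups of 4 to 10 libraries, of which chance alone would mark about 1 in 20. There were 4 such values, in 3 libraries. Hba-a1 stood at 326278 normalized counts in WT library 6 at 13 months, against 93002 to 124260 in the other 3. The ratio of Hba-a1 to Hba-a2 was 5.2 in the same library, against 1.5 to 1.86 in the others, while its Hba-a2 value, 62734, lay within its group. The same ratio was 4.73 in HEM library 4 at 13 months, against 1.62 to 2.45 in the other 7 libraries. Hbb-bt stood at 30113 in HEM library 4 at 3 months, against 111888 to 114448 in the other 3, and the other globin genes were lowest in that library as well. The cause of these values was not tested.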

How the results depend on the processing

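At 13 months 4 members were called in the reported analysis, 8 by DESeq2, 7 by limma voom, and 0 with a replicate block or with the granulocyte covariate; the count lay between 2 and 7 with 1 library left out. All 9 differences stayed positive in the 13 alternatives and the 19 fits with a library left out. In WT with age 0 were called, against 2 by DESeq2, 1 by limma voom and 1 with only the groups compared. In HEM with age 4 were called, against 2 by edgeR with either scaling, 1 with only the groups compared, and 0 without the low filter, with the replicate block, with the covariate or without the 3 libraries that stand apart, and 0 to 4 with 1 library left out. The difference between the ages had 0 calls, 4 by DESeq2, 2 by limma voom and 0 to 2 with 1 library left out. At 3 months no alternative called a member. The title numbers gave no sign of pairing the mice, which so few pairs cannot exclude. Same-numbered libraries of different groups had correlations of -0.07 to 0.17 in 11 pairs, against -0.20 to 0.26 in 117 others. With the replicate block the 13-month differences were 1.21 for Slc4a1, 1.83 for Car1, 0.81 for Kel and 1.09 for Epb42, and the sign turned for Hbb-bs (0.14) and Alas2 (0.21) at 3 months, Kel in WT with age (0.65) and Alas2 in HEM with age (0.02). With the covariate Car1 (0.20) and Kel (0.24) turned in WT with age. None of these turned values was called either way, and the cause was not tested. With 1 library left out, differences at 3 months lay between -0.58 and 0.10 for Hba-a1, -0.44 and 0.22 for Hbb-bs, -0.71 and 0.10 for Hbb-bt and -0.45 and 0.24 for Alas2. In HEM with age they lay between -0.12 and 0.41 for Hba-a1, -0.52 and 0.01 for Hba-a2, -0.39 and 0.12 for Hbb-bs, -0.40 and 0.24 for Hbb-bt and -0.45 and 0.13 for Alas2. The log2 ratio of Hbb-bs to Hbb-bt at 13 months lay between -0.16 and 0.03. Restricting the samples to the groups compared does not apply to the difference between the ages. Depth limits Epb42 and Kel most, with 14.2 and 17.6 normalized counts in their lowest libraries.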
